A study of Homo sapiens with 18 samples.

Results

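The genes described here are 42 named genes of the lysosome and of autophagy, out of the 17017 gene symbols of the deposited count table. They were chosen by symbol as a list of lysosomal proteins, hydrolases and autophagy factors, and all 42 were found in the table. MDA-MB-231 is an established human line of triple-negative breast carcinoma. The cells were transduced with lentivirus and selected with puromycin in all groups, and they received either a scramble construct (SC, read as the scramble control) or 1 of 2 short hairpin RNAs against fibrillarin (SH2 and SH3). Fibrillarin, gene FBL, is the enzyme that places 2'-O-methyl groups on ribosomal RNA. Which of the protocols' knockdowns (numbered 1 and 2) corresponds to SH2 or to SH3 is not stated in the labels. All cultures were given cycloheximide, an inhibitor of elongation, shortly before lysis. Cytoplasmic RNA (IN) and ribosome-protected footprints (RPF) were each sequenced in 3 replicates of each treatment, which makes 18 libraries. SH2 and SH3 share their SC libraries, so their comparisons with SC are not independent. The labels do not say that the replicates were separate cultures, so the p-values measure only the spread between these samples, which may be technical.

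The lysosome is the acidic compartment in which proteins, sugars and lipids delivered by endocytosis or autophagy are broken down. A proton pump, the V-ATPase, acidifies its lumen, soluble hydrolases do the degradation, and heavily glycosylated membrane proteins line its wall. Autophagy encloses cytoplasm in a double membrane that fuses with the lysosome. Many of these genes carry a short motif, known as the CLEAR element, near their start, and the related transcription factors TFEB and TFE3 bind it when they enter the nucleus, an entry that the kinase mTORC1 holds back. TFEB and TFE3 are controlled largely through phosphorylation and location, which neither library kind measured.

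Library totals were 23469830 to 27629488 counts in IN and 1662705 to 6098648 in RPF, so footprint values rest on fewer reads. FBL itself read 349 to 421 CPM (counts scaled to the library total after TMM normalization) in SC RNA, 1.26 to 11.2 in SH2 and 2.95 to 4.15 in SH3. The mesenchymal markers of the line were present, with VIM at 4080 to 7220 CPM in RNA, while ESR1 had at most 1 count, PGR at most 2 and CDH1 at most 11 in any RNA library. Genes expected to be low in this line were not all low: ERBB2 read 79.2 to 104 CPM and KRT19 373 to 595 CPM in RNA. Of the markers of other cell types, PTPRC had at most 36 counts, PECAM1 at most 93 and ALB at most 5 in an RNA library, and COL1A1 read 25.9 to 100 CPM. In these bulk libraries, fewer cells that express a gene and less RNA per cell cannot be told apart.

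The 3 SC libraries were unlike each other for the lysosome genes. Summed over the 42 genes, SC RNA read 4540 CPM in replicate 1, 3350 in replicate 2 and 3270 in replicate 3. In SC footprints the sum was 4860 in replicate 1, 8600 in replicate 2 and 6210 in replicate 3. SC replicate 1 therefore had the highest summed RNA and the lowest summed footprints of its group. The labels do not say whether the IN and RPF libraries of 1 number came from the same lysate. SH2 RNA summed to 6030, 5270 and 5510 CPM and SH3 RNA to 5430, 5130 and 4790, so by this sum all 6 knockdown libraries stood above all 3 SC libraries. SH2 footprints summed to 8860, 11200 and 9070 CPM, all above SC, while SH3 footprints, at 8470, 7470 and 7740, fell within the SC range. The mean of log2 (CPM + 1) over the same genes, in which abundant genes weigh less, did not separate the groups. In RNA it was 5.76 in SC replicate 1, beside 5.75 in SH2 replicate 2 and 5.74 in SH3 replicate 3. In footprints it was 6.09 in SC replicate 2, beside 6.04 in SH2 replicate 1. Because the SC libraries differed, counts below are also given without SC replicate 1 for RNA and without SC replicate 2 for footprints. Each was chosen from these sums as the highest SC library, so leaving it out tends to raise the changes against SC.

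Of the transcription factors, TFE3 was lower in RNA with both hairpins, and TFEB passed the test in RNA with SH3 only. TFE3 RNA read 75.6, 67.9 and 73.4 CPM in the SC replicates, 52.5, 59.2 and 65.1 in SH2, and 48.8, 60.6 and 51.9 in SH3. Every knockdown library lay below every SC library. In edgeR's quasi-likelihood test the log2 change was -0.30 ± 0.11 (SE, here and below) for SH2 (adjusted p = 0.0304) and -0.43 ± 0.11 for SH3 (adjusted p = 0.00479). The SH2 call was lost without SC replicate 1 (-0.28), SC replicate 3 (-0.29), SH2 replicate 1 (-0.22) or SH2 replicate 2 (-0.30). TFE3 footprints fell with SH2, from 32.1, 27.4 and 32.1 CPM to 17.8, 20 and 25.6 (log2 change -0.54 ± 0.19, adjusted p = 0.0286), and that call was lost without SC replicate 1 (-0.50), SC replicate 3 (-0.50), SH2 replicate 1 (-0.43) or SH2 replicate 2 (-0.49) and under DESeq2 (-0.53, adjusted p = 0.0542). With SH3 they read 21.7, 24 and 29.4 CPM, which overlaps SC.

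TFEB was scarce. Its RNA read 6.16, 6.47 and 5.82 CPM in SC, 6.32, 7.26 and 6.90 in SH2, and 6.64, 9.02 and 8.54 in SH3. The SH3 libraries lay above SC, with a log2 change of 0.39 ± 0.15 and an adjusted p of 0.0439 in edgeR's test, while SH2 overlapped SC (0.15 ± 0.15). The SH3 call was lost under 9 of 11 alternatives, among them the omission of SC replicate 1 (0.37), 2 (0.43) or 3 (0.35) and of SH3 replicate 2 (0.27) or 3 (0.31). TFEB footprints rested on 7 to 26 counts a library. They read 4.06, 5.48 and 4.44 CPM in SC, 2.59, 3.03 and 3.56 in SH2, and 5.27, 8.90 and 5.26 in SH3, and neither change against SC passed the threshold (SH2 -0.55 ± 0.34, SH3 0.54 ± 0.32).

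Because the set is known for a shared promoter motif, the windows from 250 bases before to 50 bases after the annotated start were searched on both strands for CACGTG, the core of the CLEAR element, and for the longer form TCACGTGA, which contains it. Sequences came from RefSeq (GRCh38.p14), where 32 of the 42 genes had a window. CACGTG was found in 11 of the 32 (34.4%), against 8.77% of all 27305 genes with a window. TCACGTGA was found in 7 (21.9%, against 1.18%). The sites below are shown to let the motif be compared between genes whose RNA rose with both hairpins (the first 6) and genes whose RNA did not pass the test with either (the last 2), with the motif in capitals, on the strand of the gene. Positions are those of the first base of CACGTG, counted from the annotated start, and all of the sites shown lie before it, outside the annotated transcript. Only 1 site per gene is shown. The motif also lies at -192, -176, -159, -142 and -1 in LAMP1, -42 in CTSA, -32 in GALNS, -31 in GAA and -14 in MCOLN1. Not shown are CLN3 and ARSB, which carry CACGTG and passed with neither hairpin, and CTSF, which passed with SH2 alone.
ATP6V0D1, chr16:67481190-67481237, minus strand, motif at -59: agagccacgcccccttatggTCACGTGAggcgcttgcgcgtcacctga
LAMP1, chr13:113297190-113297237, plus strand, motif at -28: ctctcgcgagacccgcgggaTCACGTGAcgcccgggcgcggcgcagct
CTSA, chr20:45891298-45891327, plus strand, motif at -25: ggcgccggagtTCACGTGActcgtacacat
CTSD, chr11:1763949-1763994, minus strand, motif at -47: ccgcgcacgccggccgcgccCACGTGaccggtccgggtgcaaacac
NEU1, chr6:31862922-31862967, minus strand, motif at -126: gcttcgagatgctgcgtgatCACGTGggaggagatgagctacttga
GALNS, chr16:88857095-88857142, minus strand, motif at -174: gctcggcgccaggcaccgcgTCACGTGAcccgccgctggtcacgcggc
GAA, chr17:80101484-80101531, plus strand, motif at -76: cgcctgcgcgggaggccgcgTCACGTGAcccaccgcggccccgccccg
MCOLN1, chr19:7522562-7522609, plus strand, motif at -41: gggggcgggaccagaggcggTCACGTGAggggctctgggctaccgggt

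Genes with and without the motif were found among those that rose. Of the 11 genes with CACGTG in the window, 6 had higher RNA with both hairpins and 0 had lower RNA with both. Of the 21 genes whose window lacked these letters, 3 were higher with both and 4 lower with both, and of the 10 genes with no window, 5 were higher with both. Over all 12710 genes tested in RNA, 19.6% were higher with both and 18.2% lower with both. The share among all genes that carry the motif was not counted, and the difference between these groups of genes was not tested. GAA and MCOLN1 carry the longer form of the motif, and their RNA changes were 0.44 ± 0.19 and 0.07 ± 0.12 with SH2 and 0.24 ± 0.19 and 0.23 ± 0.12 with SH3, all short of the threshold, although GAA passed with SH2 once the replicate number was added as a block (0.47, adjusted p = 0.0265). ATP6AP1, the gene of the set whose RNA rose most, has no CACGTG in its window. A match is only a description of the sequence, and no binding was measured.

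In RNA, more lysosome and autophagy genes rose than fell. With SH2, 24 of the 41 genes tested passed edgeR's test at an adjusted p under 0.05, where 61.4% of all 12710 genes tested passed. The total is close to that background, but its direction was not even: 18 were higher, where 31.1% of all genes were, and 6 were lower, where 30.4% were. With SH3, 22 of 41 passed (all genes 53.0%), 18 higher (all genes 27.8%) and 4 lower (25.2%). The median log2 change of the 41 genes was 0.27 with SH2 and 0.241 with SH3, beside 0.012 and 0.034 over all genes. Without SC replicate 1 the counts were 26 with SH2 (22 higher, 4 lower) and 24 with SH3 (22 higher, 2 lower), with medians of 0.441 and 0.375. Shares and medians over all genes were not counted under this or the other alternatives, so those above do not serve as background here. Other omissions lowered the medians. They were 0.232 and 0.219 without SC replicate 2. The lowest were 0.204 with SH2, without SH2 replicate 1, and 0.181 with SH3, without SH3 replicate 1. Replicates of the same number deviated together in SC and SH2, and with the replicate number as a block 28 genes passed in SH2 RNA, the 24 and also NPC1 (0.28, adjusted p = 0.0102), GAA (0.47, adjusted p = 0.0265), ARSA (0.65, adjusted p = 0.0217) and NPC2 (-0.26, adjusted p = 0.0151).

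Higher RNA with both hairpins was found for 14 of the 41 genes (all genes 19.6%, the SC libraries being shared by both comparisons): the pump genes ATP6V0D1, ATP6V1H and ATP6AP1, the membrane proteins LAMP1 and LAMP2, the hydrolases CTSA, CTSD, CTSL, HEXA, NEU1, GALNS and ASAH1, the activator precursor PSAP and the autophagy receptor SQSTM1. TFE3, GLA, IDS and PPT1, 4 of the 41, were lower with both (all genes 18.2%). A change with SH2 alone passed the test for CTSF, TPP1, IDUA and WIPI1 (higher) and for ATP6V0A1 and GLB1 (lower), and with SH3 alone for TFEB, ATP6V1A, SCARB2 and NAGLU (higher). The remaining tested genes, 13 in number, passed with neither hairpin. CTSB, the gene of cathepsin B, had 0 to 8 counts in every library and was not tested. CLN3 had 4 to 16 counts in RNA and at most 2 in footprints and was tested in RNA only. ARSA, with 27 to 101 counts in RNA and 3 to 18 in footprints, was tested in RNA and in efficiency but not in footprints alone. The annotation and the handling of reads that match several places are not given in the sources used here, so the low counts of CTSB and CLN3 are not read as low expression.

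**Figure D1:**
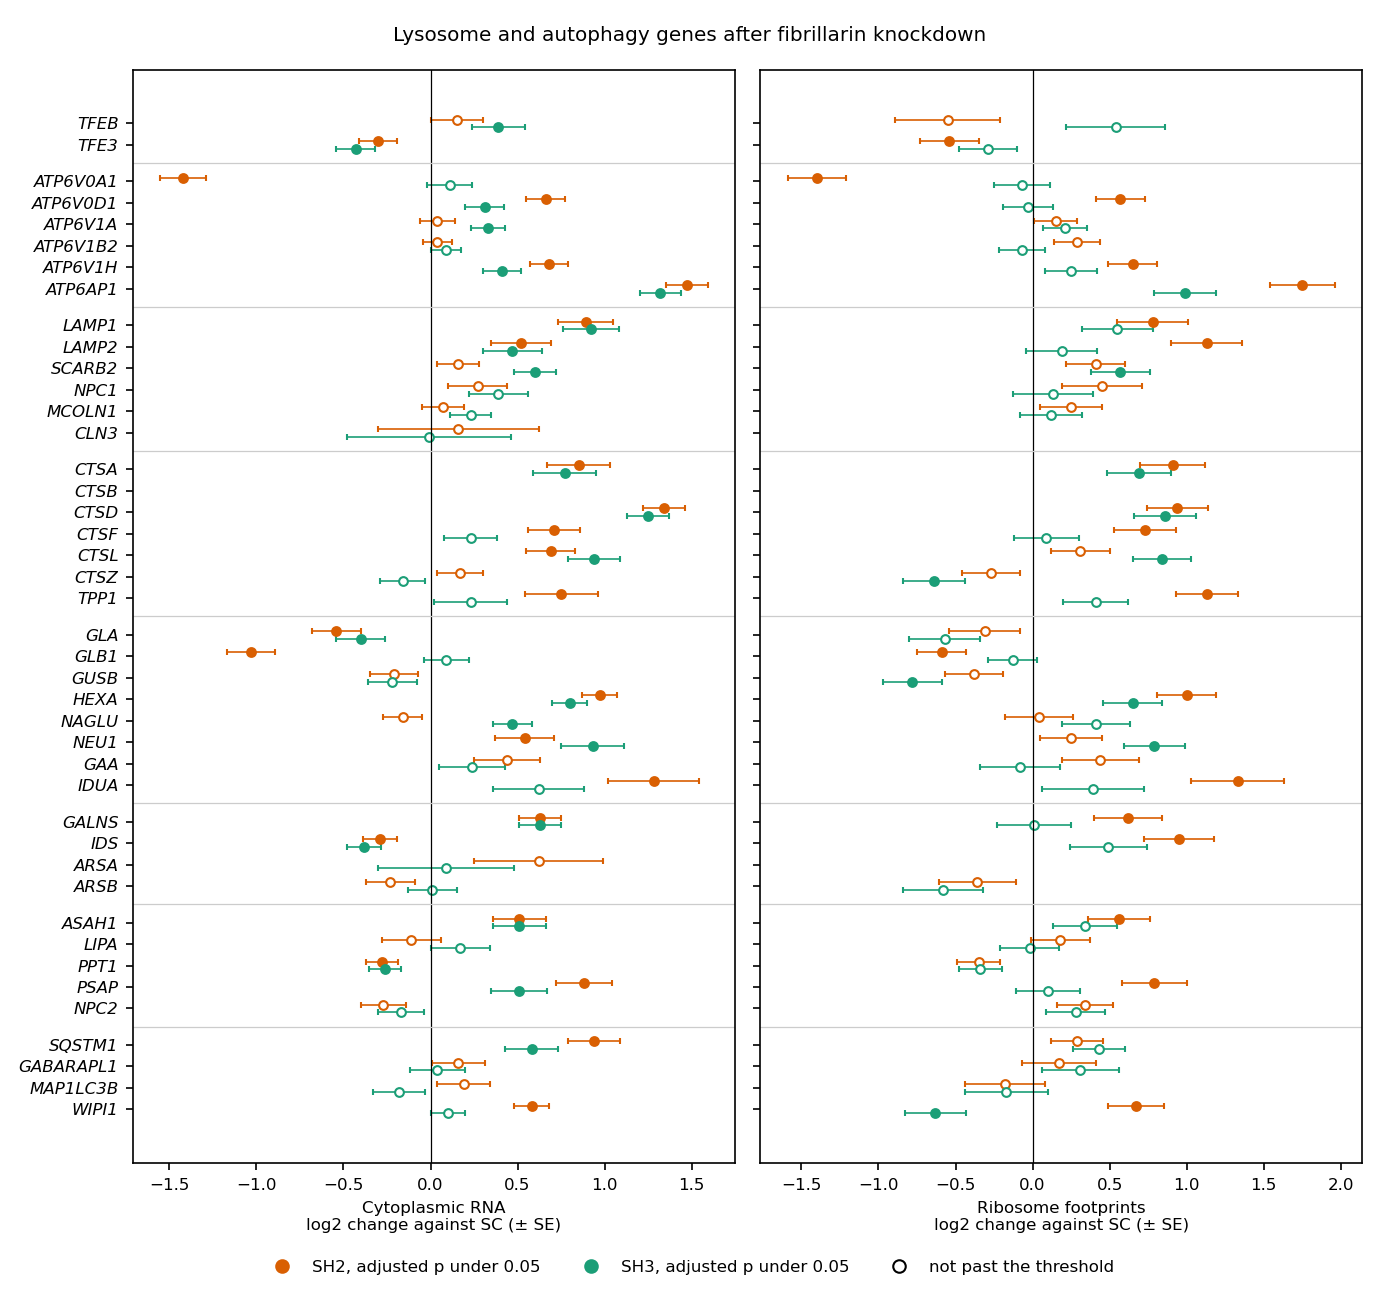
Log2 change against SC of each gene, by role from transcription factors at the top to autophagy factors at the bottom, in cytoplasmic RNA (left) and ribosome footprints (right). Points are edgeR's estimates with SE bars, orange for SH2 and green for SH3, and filled points passed an adjusted p of 0.05. ATP6AP1 and CTSD are the 2 genes farthest to the right in RNA with both hairpins, and ATP6V0A1 and GLB1 lie far to the left with SH2 only.

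The proton pump held both the largest rise and the largest fall of the set. ATP6AP1 encodes an accessory subunit needed to assemble the pump. Its RNA read 88.7, 75.7 and 63.5 CPM in SC, 225, 189 and 214 in SH2, and 208, 187 and 174 in SH3. No knockdown library came near an SC library, and the log2 changes were 1.47 ± 0.12 (adjusted p = 4.09e-07) and 1.32 ± 0.12 (adjusted p = 2.18e-06). Its footprints read 96.1, 186 and 125 CPM in SC, 354, 535 and 466 in SH2, and 276, 267 and 260 in SH3. Again the groups did not overlap, with changes of 1.75 ± 0.21 (adjusted p = 8.89e-06) and 0.99 ± 0.20 (adjusted p = 0.00145).

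ATP6V0A1 encodes 1 of the alternative large membrane subunits, which steer the pump to a compartment. Its RNA read 65.0, 49.9 and 46.5 CPM in SC, 20.9, 20.5 and 19.1 in SH2, and 63.0, 59.9 and 51.7 in SH3. SH2 lay far below both other groups, while SH3 and SC overlapped. The changes were -1.42 ± 0.13 with SH2 (adjusted p = 8.52e-07) and 0.11 ± 0.13 with SH3 (adjusted p = 0.471). Footprints showed the same split, at 80.2, 131 and 97.5 CPM in SC, 34.8, 47.1 and 32.7 in SH2, and 93.7, 99.6 and 97.8 in SH3, with changes of -1.40 ± 0.19 (adjusted p = 2.85e-05) and -0.07 ± 0.18 (adjusted p = 0.799).

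The other pump genes changed less. ATP6V0D1, which joins the membrane sector to the stalk, rose in RNA by 0.66 ± 0.11 with SH2 and 0.31 ± 0.11 with SH3. ATP6V1H, a regulatory subunit of the cytosolic sector, rose by 0.68 ± 0.11 and 0.41 ± 0.11. Both also rose in SH2 footprints (0.57 ± 0.16 and 0.65 ± 0.16) and not in SH3 footprints (-0.03 ± 0.16 and 0.25 ± 0.17). ATP6V1A, the catalytic subunit, passed against SC in SH3 RNA alone (0.33 ± 0.10). Its partner ATP6V1B2 passed in no comparison when all libraries were fitted by edgeR, with RNA changes of 0.04 ± 0.085 and 0.09 ± 0.085. With only the groups compared, ATP6V1B2 footprints differed between SH2 and SH3 (0.35, adjusted p = 0.0436). The ATP6V0D1 rise in SH3 RNA lost its call without SC replicate 2 (0.26) or 3 (0.30) or any 1 SH3 replicate, and was 0.18 without SH3 replicate 1. ATP6V1A lost its call without SC replicate 3 (0.30), SH3 replicate 1 (0.22) or SH3 replicate 3 (0.31), and ATP6V0D1 in SH2 footprints without SH2 replicate 2 (0.41).

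**Figure D2:**
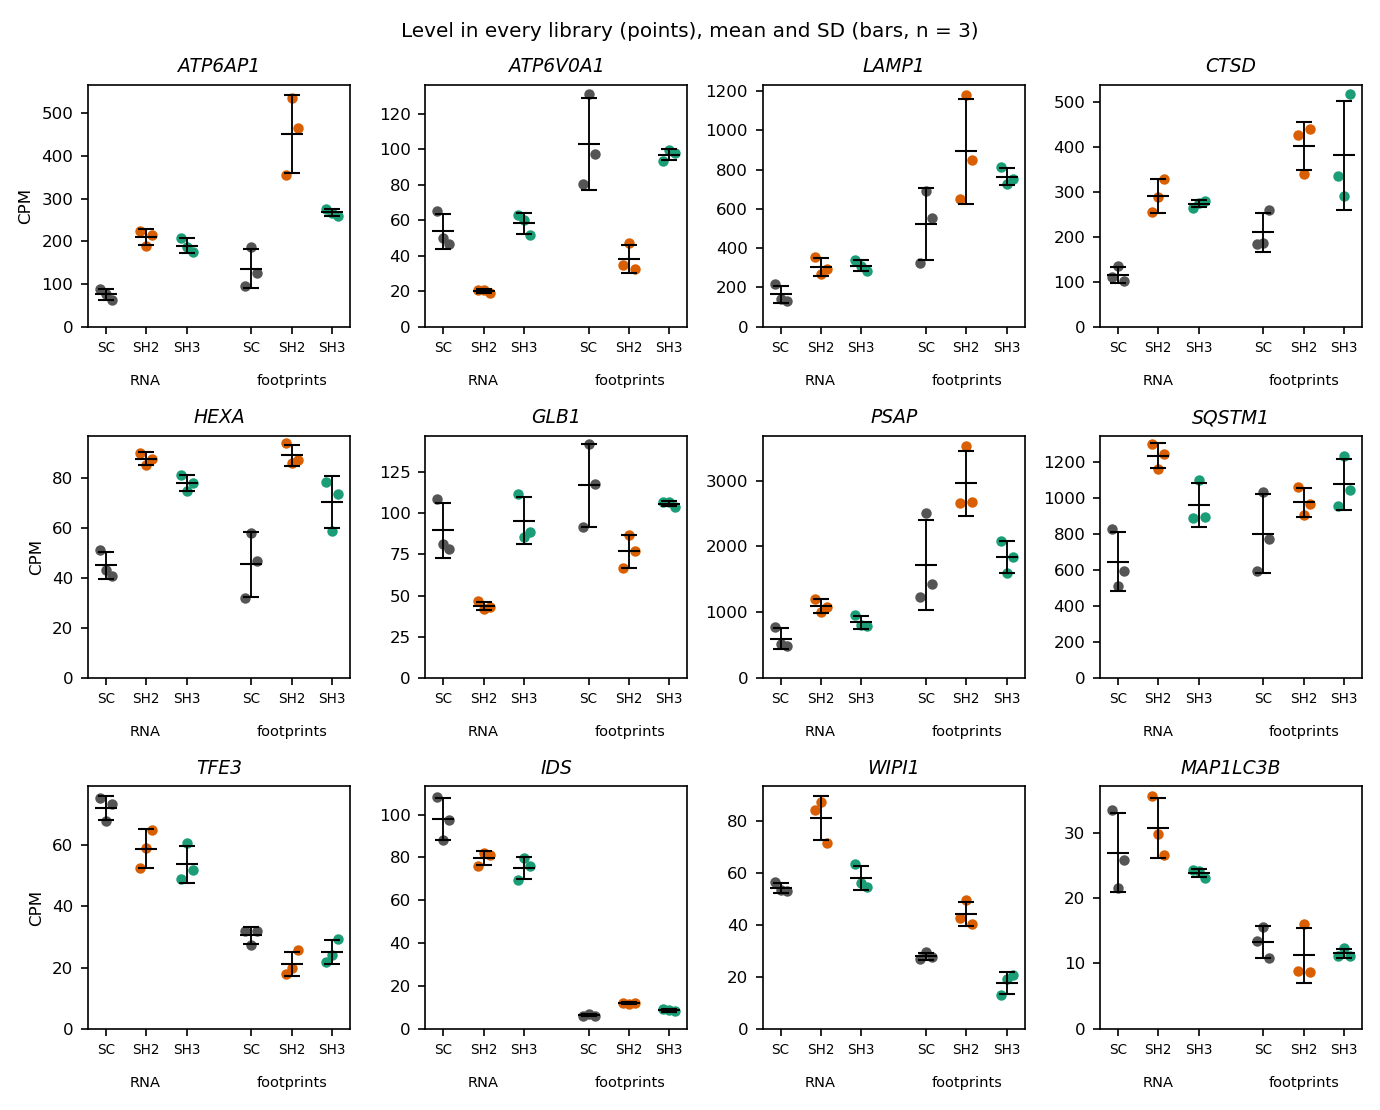
Level of 12 genes in every library, in CPM on a linear axis from 0, with RNA at the left and footprints at the right of each panel. Points are libraries (grey SC, orange SH2, green SH3) and black bars the mean and SD of 3. ATP6AP1, CTSD and HEXA show knockdown groups above SC in both kinds of library, ATP6V0A1 is low in SH2 only, and IDS is the panel where RNA is lower but footprints are higher after knockdown.

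Among the membrane proteins, LAMP1 and LAMP2, the main glycoproteins of the lysosomal wall, rose in RNA. LAMP1 RNA read 216, 143 and 133 CPM in SC, 354, 267 and 292 in SH2, and 338, 307 and 282 in SH3. Every knockdown library was above every SC library, SC replicate 1 being the highest of its group. The log2 changes were 0.89 ± 0.16 (adjusted p = 0.000313) and 0.92 ± 0.16 (adjusted p = 0.000361). LAMP1 footprints read 325, 690 and 554 CPM in SC, 650, 1180 and 850 in SH2, and 811, 726 and 753 in SH3. SH2 overlapped SC through SC replicate 2, and SH3 did not overlap it. By edgeR's test SH2 passed (0.78 ± 0.23, adjusted p = 0.0124), a call lost without SH2 replicate 2 (0.53), and SH3 did not (0.55 ± 0.23, adjusted p = 0.0744), but passed without SC replicate 2 (0.80) and with no filter on low counts (0.55, adjusted p = 0.00284).

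LAMP2, also a receptor for chaperone-mediated autophagy in 1 of its splice forms, rose in RNA by 0.52 ± 0.17 and 0.47 ± 0.17, although its groups overlapped. Those calls were lost without SC replicate 3 (0.36 and 0.32), among others: without SH2 replicate 1 or 2 for SH2 (0.44 each), and without SC replicate 2 (0.43) or SH3 replicate 1 (0.32) or 2 (0.48) for SH3. In SH2 footprints LAMP2 rose by 1.13 ± 0.23, from a mean of 213 ± 84.3 CPM in SC to 462 ± 91.2 (SD, n = 3), with no overlap, whereas SH3 footprints averaged 242 ± 43.0. SCARB2, the receptor that carries glucocerebrosidase to the lysosome, passed with SH3 alone, in RNA (0.60 ± 0.12) and in footprints (0.57 ± 0.19). Its footprint call was lost without SC replicate 1 (0.46), SC replicate 3 (0.56) or SH3 replicate 1 (0.39). NPC1, the cholesterol exporter, and MCOLN1, the lysosomal calcium channel, did not pass in any comparison with SC without the block, their RNA changes ranging from 0.07 to 0.39. NPC1 passed with no filter on low counts in SH3 RNA (0.39, adjusted p = 0.0247) and in SH2 footprints (0.45, adjusted p = 0.0184).

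Most proteases that could be tested rose with SH2. Of the 6 that could be tested in RNA, 5 were higher with SH2 (all genes 31.1%) and 3 with SH3 (all genes 27.8%). Lower RNA was called for 0 of them (all genes 30.4% with SH2 and 25.2% with SH3). CTSD, an aspartic protease and among the main proteases of the lysosome, read 110, 135 and 102 CPM in SC RNA, 255, 289 and 330 in SH2, and 265, 276 and 281 in SH3. There was no overlap, and the changes were 1.34 ± 0.12 (adjusted p = 6.66e-07) and 1.25 ± 0.12 (adjusted p = 2.6e-06). Its footprints read 184, 186 and 260 CPM in SC, 428, 341 and 440 in SH2, and 336, 291 and 519 in SH3. All knockdown libraries were above SC here too, by 0.94 ± 0.20 (adjusted p = 0.00143) and 0.86 ± 0.20 (adjusted p = 0.00353).

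CTSA, a carboxypeptidase that also protects neuraminidase and beta-galactosidase, rose in RNA by 0.85 ± 0.18 and 0.77 ± 0.18 and in footprints by 0.91 ± 0.21 and 0.69 ± 0.21. The SH3 footprint change of CTSA was lost without SC replicate 3 (0.64) or SH3 replicate 1 (0.63) and was 1.04 without SC replicate 2. CTSL, a cysteine protease, rose in RNA by 0.69 ± 0.14 and 0.94 ± 0.15, and in footprints with SH3 (0.84 ± 0.19) but not with SH2 (0.31 ± 0.19). TPP1, a tripeptidyl peptidase, rose with SH2 in RNA (0.75 ± 0.21) and footprints (1.13 ± 0.20) and did not pass with SH3 (0.23 ± 0.21 and 0.41 ± 0.21). CTSZ, a carboxypeptidase, passed only in SH3 footprints and was lower there (-0.64 ± 0.20), a call lost without SC replicate 3 (-0.37) or SH3 replicate 2 (-0.60) or 3 (-0.62).

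CTSF, another cysteine protease, read 23.9, 21.5 and 20.2 CPM in SC RNA, 41.1, 27.5 and 38.4 in SH2, and 29.1, 21.6 and 26.2 in SH3. SH2 lay above SC and SH3 overlapped it, with changes of 0.71 ± 0.15 (adjusted p = 0.00113) and 0.23 ± 0.15 (adjusted p = 0.219). In footprints it read 17.4, 17.7 and 25.6 CPM in SC, 33.7, 36.4 and 31.4 in SH2, and 19.9, 18.8 and 26.3 in SH3. Only SH2 stood apart, at 0.73 ± 0.20 (adjusted p = 0.0072) against 0.09 ± 0.21 with SH3.

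The glycosidases, which strip sugars from glycolipids, glycoproteins and glycosaminoglycans, moved in both directions. HEXA, the alpha subunit of beta-hexosaminidase A, rose throughout. Its RNA read 51.0, 42.9 and 40.7 CPM in SC, 90.0, 85.1 and 87.6 in SH2, and 81.0, 74.6 and 78 in SH3, without overlap (0.97 ± 0.10, adjusted p = 2.27e-06, and 0.80 ± 0.10, adjusted p = 2.14e-05). In footprints HEXA read 31.8, 57.7 and 46.5 CPM in SC, 93.7, 85.8 and 87.1 in SH2, and 78.4, 58.5 and 73.6 in SH3. Every knockdown library was above SC, SH3 replicate 2 only just, and the changes were 1.00 ± 0.19 (adjusted p = 0.000572) and 0.65 ± 0.19 (adjusted p = 0.0156). The latter was lost without SC replicate 1 (0.45), SH3 replicate 1 (0.58) or SH3 replicate 3 (0.62).

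GLB1, the lysosomal beta-galactosidase, fell with SH2 alone. RNA read 109, 81.5 and 78.4 CPM in SC, 46.5, 42.0 and 42.9 in SH2, and 112, 85.7 and 89.0 in SH3. The SH2 libraries were well below the rest, and SH3 overlapped SC, with changes of -1.03 ± 0.14 (adjusted p = 1.91e-05) and 0.09 ± 0.13 (adjusted p = 0.573). Footprints read 91.6, 142 and 118 CPM in SC, 66.7, 86.9 and 77.1 in SH2, and 107, 107 and 104 in SH3. SH2 was lower without overlap (-0.59 ± 0.16, adjusted p = 0.00807), and SH3 lay inside the SC range (-0.13 ± 0.16).

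Of the other glycosidases, NEU1, a sialidase, rose in RNA by 0.54 ± 0.17 and 0.93 ± 0.18 and in SH3 footprints by 0.79 ± 0.20. The SH2 RNA call of NEU1 was lost without SC replicate 2 (0.45), SC replicate 3 (0.38) or SH2 replicate 1 (0.41). IDUA, alpha-L-iduronidase, rose with SH2 in RNA (1.28 ± 0.26) and footprints (1.33 ± 0.30), from low levels of 6.90 ± 3.64 CPM in RNA and 10.4 ± 5.92 in footprints in SC. NAGLU, which acts on heparan sulfate, passed in SH3 RNA alone (0.47 ± 0.11). GLA, alpha-galactosidase A, was lower in RNA with both hairpins (-0.54 ± 0.14 and -0.40 ± 0.14), the latter lost without SC replicate 1 (-0.27) or SH3 replicate 2 (-0.39) or 3 (-0.33). GUSB, beta-glucuronidase, was lower only in SH3 footprints (-0.78 ± 0.19), and GAA, acid alpha-glucosidase, passed in none without the block, but did so in SH2 RNA with no filter on low counts (0.44, adjusted p = 0.024).

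Among the sulfatases, GALNS, which acts on keratan and chondroitin sulfate, rose in RNA from 17.9, 16.0 and 14.8 CPM in SC to 24.7, 24.3 and 26.4 in SH2 and 23.9, 28.6 and 22.7 in SH3. The groups did not overlap, and both changes were 0.63 ± 0.12 (adjusted p = 0.00043 and 0.00064). GALNS footprints read 9.58, 13.5 and 11.9 CPM in SC, 16.3, 20.5 and 15.5 in SH2, and 9.37, 12.3 and 12.3 in SH3. SH2 was above SC (0.62 ± 0.22, adjusted p = 0.03) and SH3 overlapped it (0.01 ± 0.24). The SH2 footprint call was lost without SC replicate 1 (0.50), SC replicate 3 (0.66) or SH2 replicate 2 (0.49) and under DESeq2 (0.63, adjusted p = 0.0681). ARSB did not pass anywhere.

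IDS, iduronate-2-sulfatase, was the gene whose RNA and footprints moved apart. RNA read 108, 88.2 and 97.5 CPM in SC, 76.2, 82.0 and 81.1 in SH2, and 69.3, 79.5 and 76.2 in SH3. All knockdown libraries were below SC, by -0.29 ± 0.098 (adjusted p = 0.0179) and -0.38 ± 0.098 (adjusted p = 0.00466), the SH2 call being lost without SC replicate 1 (-0.24) or SH2 replicate 1 (-0.26). Footprints were few, at 16 to 49 counts a library. They read 5.84, 6.74 and 6.04 CPM in SC, 12.2, 11.4 and 12.0 in SH2, and 9.37, 8.56 and 8.06 in SH3. All 6 knockdown libraries were above all SC libraries, with changes of 0.95 ± 0.23 (adjusted p = 0.00348) for SH2 and 0.49 ± 0.25 (adjusted p = 0.141) for SH3.

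Of the genes of lipid breakdown, PSAP encodes the precursor of the saposins, which present sphingolipids to their hydrolases. Its RNA read 776, 517 and 482 CPM in SC, 1200, 992 and 1070 in SH2, and 957, 796 and 782 in SH3. The groups did not overlap, although SH3 replicate 3 exceeded SC replicate 1 only slightly, and the changes were 0.88 ± 0.16 (adjusted p = 0.00027) and 0.51 ± 0.16 (adjusted p = 0.0132). The SH3 call was lost without SC replicate 2 (0.42), SC replicate 3 (0.38) or SH3 replicate 1 (0.37). PSAP footprints read 1230, 2500 and 1420 CPM in SC, 2660, 3530 and 2680 in SH2, and 2080, 1590 and 1830 in SH3. SH2 was above SC (0.79 ± 0.21, adjusted p = 0.00726), and SH3 lay within the range set by SC replicate 2 (0.10 ± 0.21), passing the test when that library was left out (0.47).

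ASAH1, acid ceramidase, rose in RNA by 0.51 ± 0.15 with each hairpin and in SH2 footprints by 0.56 ± 0.20. The RNA call for SH3 was lost without SC replicate 3 (0.38). The footprint call was lost without SC replicate 1 (0.42), SC replicate 3 (0.43), SH2 replicate 1 (0.59) or SH2 replicate 2 (0.42) and the change was 0.87 without SC replicate 2. PPT1, a palmitoyl-protein thioesterase, was slightly lower in RNA with both hairpins (-0.28 ± 0.091 and -0.26 ± 0.091). It lost its SH2 call without SC replicate 2 (-0.25) and its SH3 call without SC replicate 1 (-0.23), SC replicate 2 (-0.23) or SH3 replicate 3 (-0.26). LIPA, acid lipase, and NPC2, a cholesterol carrier, did not pass in RNA or footprints against SC without the block.

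Of the 4 autophagy genes, SQSTM1 and WIPI1 were higher in SH2 RNA (all genes 31.1%) and SQSTM1 in SH3 RNA (all genes 27.8%). In RNA 0 were lower (all genes 30.4% with SH2 and 25.2% with SH3). SQSTM1 encodes p62, a receptor that links ubiquitinated cargo to the autophagosome and is itself degraded there, so that its RNA does not report its protein level. SQSTM1 RNA read 828, 510 and 594 CPM in SC, 1300, 1160 and 1240 in SH2, and 888, 1100 and 890 in SH3. All knockdown libraries were above SC, by 0.94 ± 0.15 (adjusted p = 0.000116) and 0.58 ± 0.15 (adjusted p = 0.00544). Footprints did not follow to the same degree, at 595, 1030 and 770 CPM in SC, 1060, 902 and 962 in SH2, and 954, 1230 and 1040 in SH3. The groups overlapped through SC replicate 2, and neither change passed edgeR's test (0.29 ± 0.17, adjusted p = 0.183, and 0.43 ± 0.17, adjusted p = 0.0608). Without SC replicate 2 both passed, at 0.51 and 0.66, and SH3 passed with no filter on low counts (0.43, adjusted p = 0.017).

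MAP1LC3B encodes LC3B, the ubiquitin-like protein that is attached to the autophagosome membrane. Its RNA read 33.6, 21.6 and 25.8 CPM in SC, 35.7, 29.9 and 26.6 in SH2, and 24.4, 24.1 and 23.1 in SH3. The groups overlapped, and the changes were 0.19 ± 0.15 and -0.18 ± 0.15 (adjusted p = 0.298 and 0.343). Without SC replicate 1 the SH2 change passed the test, at 0.36. Footprints of MAP1LC3B read 13.5, 15.6 and 10.8 CPM in SC, 8.89, 16.1 and 8.74 in SH2, and 11.1, 12.3 and 11.2 in SH3, again overlapping. GABARAPL1, a relative of LC3B, changed by 0.16 ± 0.15 and 0.04 ± 0.16 in RNA and did not pass in any comparison with SC.

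WIPI1, which binds the phosphoinositide on the forming autophagosome, was the single gene of the set with footprints higher than SC in 1 knockdown and lower in the other, both past the threshold. Its RNA read 56.7, 53.4 and 53.3 CPM in SC, 84.5, 87.5 and 71.6 in SH2, and 63.6, 56.4 and 54.8 in SH3. SH2 was above both other groups (0.58 ± 0.10, adjusted p = 0.000244), and SH3 overlapped SC (0.10 ± 0.10). WIPI1 footprints read 26.8, 29.5 and 27.5 CPM in SC, 42.6, 49.7 and 40.5 in SH2, and 12.9, 19.2 and 20.7 in SH3. The 3 groups did not overlap at all: SH2 was higher than SC by 0.67 ± 0.18 (adjusted p = 0.00586) and SH3 lower, at -0.63 ± 0.20 (adjusted p = 0.0204). The SH3 value rests on 22 to 59 counts a library, and its call was lost without SC replicate 3 (-0.63, adjusted p = 0.0543) or SH3 replicate 1 (-0.47).

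In footprints as a whole, 19 of the 39 genes tested passed with SH2 (all genes 44.2%), 16 higher (all genes 21.0%) and 3 lower (23.2%). With SH3, 10 of 39 passed (all genes 35.9%), 7 higher (16.9%) and 3 lower (19.0%). The median changes were 0.339 with SH2 and 0.193 with SH3, beside -0.004 and -0.014 over all 10345 genes tested. Without SC replicate 1 the medians were 0.166 and 0.015, and without SC replicate 2 they were 0.559 and 0.366. SC replicate 2 weighed on both counts: without it 29 genes passed with SH2 (26 higher, 3 lower) and 19 with SH3 (16 higher, 3 lower). With SH3 the count was 6 without SC replicate 3 and also 6 without SH3 replicate 1. With the replicate block 22 passed with SH2, the 19 and also NPC1 (0.47, adjusted p = 0.0444), GUSB (-0.38, adjusted p = 0.0495) and PPT1 (-0.36, adjusted p = 0.0295). Shares and medians over all genes were not counted with the block or with a replicate left out. ATP6AP1, CTSA, CTSD and HEXA were higher in RNA and in footprints with both hairpins, a pattern for which no share over all genes was counted. With SH2, 15 genes were higher (all genes tested in both 17.5%) and 3 lower (19.4%) in RNA and footprints alike, 3 were higher in RNA alone (CTSL, NEU1 and SQSTM1) and 0 in footprints alone. Without the block GLA and PPT1 were lower in RNA alone, and IDS was lower in RNA and higher in footprints. With SH3, 7 were higher in both kinds of library (all genes 14.3%) and 11 in RNA alone, and CTSZ, GUSB and WIPI1 were lower in footprints alone. A call in 1 kind of library and not in the other is not itself a tested difference, which the ratio test below gives. Shares over all genes were not counted for calls in 1 kind of library alone. Over all genes too, more were higher in RNA (31.1% with SH2, 27.8% with SH3) than in footprints (21.0% and 16.9%).

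**Figure D3:**
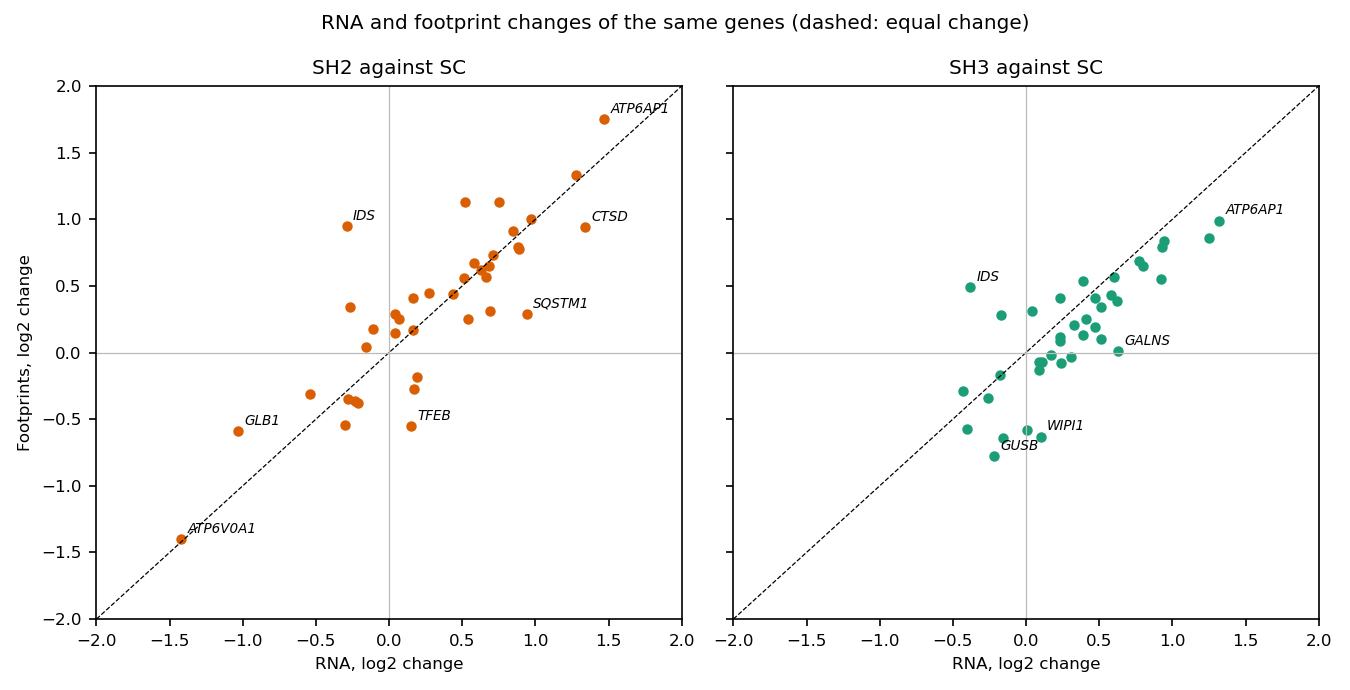
RNA change (x) against footprint change (y), both log2 against SC, for the 39 genes tested in both, SH2 at the left and SH3 at the right, with the dashed line marking equal change. With SH2 most points lie along the line, and IDS stands off it at -0.29 in RNA and 0.95 in footprints. With SH3 most points lie below the line, and WIPI1 is at 0.10 in RNA and -0.63 in footprints.

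Translational efficiency was tested as the difference between the footprint change and the RNA change in 1 fit over all 18 libraries. It passed for IDS alone with SH2, which is 1 of 40 genes tested (all 12531 genes 3.9%, of which 1.44% higher and 2.46% lower). The efficiency of IDS changed by 1.23 ± 0.20 on the log2 scale (adjusted p = 0.00151), and this held under every alternative run, with the lowest value 1.14 and the highest 1.33. With SH3 the change was 0.88 ± 0.22 (adjusted p = 0.0621) and passed in DESeq2 only (0.89, adjusted p = 0.0379). In SC the ratio of IDS footprint CPM to RNA CPM was 0.0634, the lowest of the 40 genes and at percentile 1.82 of 12519 genes, and it was 0.149 in SH2 and 0.116 in SH3. The median ratio of the 40 genes in SC was 1.5, beside 0.812 over all genes, each kind of library being scaled to its own total.

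With SH3, 0 of 40 genes passed in efficiency by edgeR (all genes 0.686%). At an unadjusted p under 0.05 there were 4 of 40 (all genes 1574 of 12531), and DESeq2 called 2, IDS and WIPI1 (-0.69, adjusted p = 0.0265). The efficiency of 32 of the 40 genes had a negative sign with SH3 (all genes 6871 of 12531), with a median of -0.14 beside -0.044 over all genes. The median of the 40 genes was -0.458 without SC replicate 1, when GAA (-0.91) and GUSB (-0.87) passed, and 0.086 without SC replicate 2. WIPI1 read -0.71 ± 0.20 with SH3 (adjusted p = 0.119) and 0.09 ± 0.18 with SH2. SQSTM1 read -0.66 ± 0.24 with SH2 (adjusted p = 0.139), and passed when SC replicate 1 was left out (-1.03, adjusted p = 0.00621). NPC2 passed with SH2 when SC replicate 2 was left out (0.89, adjusted p = 0.0272).

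**Figure D4:**
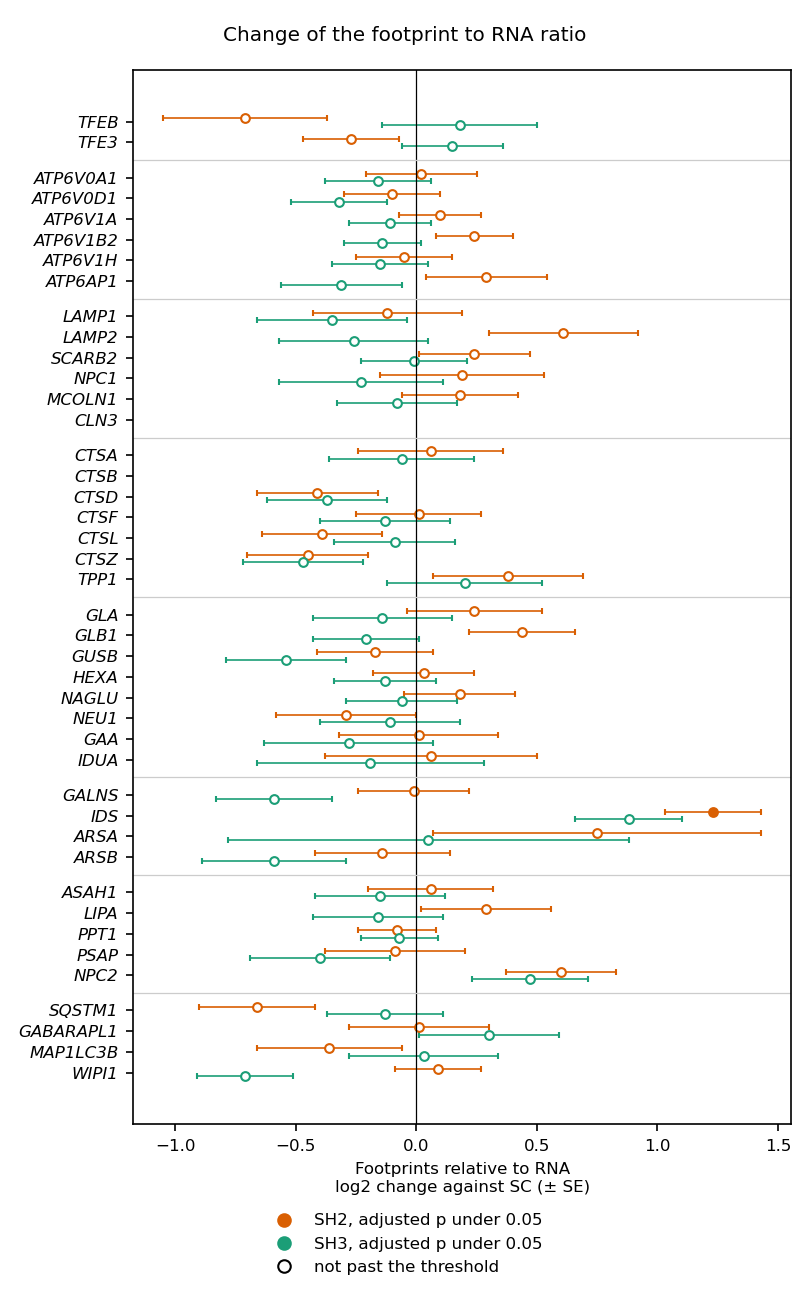
Change of the ratio of footprints to RNA, log2 against SC, for the 40 genes tested, in the same order as the plot of RNA and footprint changes, with SE bars (orange SH2, green SH3). IDS with SH2, at 1.23, is the 1 filled point. With SH3 32 of the 40 points lie at negative values (all genes 6871 of 12531), with a median of -0.14 that became 0.086 without SC replicate 2.

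The knockdowns were also compared with each other. In RNA, 8 of 41 genes differed between SH2 and SH3 (all genes 39.3%), 3 higher (all genes 18.9%) and 5 lower in SH2 (20.4%). The count was 5 without SH3 replicate 3, 13 with DESeq2, 14 with no filter on low counts and also 14 with only the groups compared. The replicate block gained 9 further genes and lost 0. Shares over all genes were not counted under these other settings, so whether the share of these genes stayed below that of all genes was not tested. ATP6V0A1 (-1.53) and GLB1 (-1.13) differed most, both lower in SH2, and NAGLU (-0.63) and SCARB2 (-0.44) were lower in SH2 as well. WIPI1 and CTSF (0.48 each) were higher in SH2. The CTSF difference was lost without SH2 replicate 1 (0.36), SH2 replicate 3 (0.43), SH3 replicate 2 (0.39) or SH3 replicate 3 (0.51), and that of SCARB2 without SH2 replicate 3 (-0.32). In footprints 10 of 39 differed (all genes 23.8%), 8 higher (12.1%) and 2 lower in SH2 (11.6%), a count that fell to 5 without SH2 replicate 2 and to 4 without SH3 replicate 2. Here the block gained 4 genes and lost 0. The footprint differences of WIPI1 (1.30) and ATP6V0A1 (-1.33) were the largest. In efficiency 0 of 40 differed by edgeR (all genes 0.016%), with 8 at an unadjusted p under 0.05 (all genes 1471 of 12531) and 1, WIPI1, in DESeq2 (0.79, adjusted p = 0.01).

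A wider list of 159 further lysosome and autophagy genes, drawn up by role, was counted in the same fits. In RNA, 152 could be tested, and 63 were higher (41.4%, all genes 31.1%) and 29 lower (19.1%, all genes 30.4%) with SH2. With SH3 67 were higher (44.1%, all genes 27.8%) and 22 lower (14.5%, all genes 25.2%). Called with both hairpins in the same direction, with SC shared, were 49 higher genes (all genes 19.6%) and 13 lower genes (all genes 18.2%). Of the genes that sort hydrolases to the lysosome, 11 of 15 were higher and 2 lower with SH2, and 10 were higher and 0 lower with SH3. Further hydrolases rose in 12 and 13 of 32 and fell in 5 and 4, and further membrane proteins rose in 12 and 11 of 20 and fell in 4 and 2. The autophagy core, the proteins that build the autophagosome, was divided, with 9 higher and 5 lower of 32 with SH2 and 13 higher and 6 lower with SH3. Genes of nutrient control at the lysosome were 2 higher and 4 lower of 14 with SH2, and 4 higher and 5 lower with SH3.

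Genes of the wider list called in RNA with both hairpins in the same direction were ranked by their mean RNA change. The highest were ATG101, a subunit of the ULK1 kinase complex that starts autophagy, ATP6V0D2, an alternative pump subunit, and LGMN, the asparaginyl protease legumain. ATG101 rose by 1.88 ± 0.10 with SH2 and 1.54 ± 0.10 with SH3 in RNA, and by 1.11 ± 0.16 and 1.09 ± 0.16 in footprints. ATP6V0D2 rose in RNA by 1.86 ± 0.22 and 1.07 ± 0.22, and LGMN by 1.28 ± 0.21 and 1.25 ± 0.21. In footprints ATP6V0D2 passed with SH2 (1.7 ± 0.32) and not with SH3 (0.38 ± 0.39), and LGMN passed with both (0.93 ± 0.28 and 0.82 ± 0.28). The lowest by the same rule were ULK2, an initiating kinase (-1.24 ± 0.29 and -1.89 ± 0.31 in RNA), and ATP6V0E2, a small pump subunit (-1.74 ± 0.15 and -0.77 ± 0.15). With them was RETREG1, a receptor for autophagy of the endoplasmic reticulum (-0.93 ± 0.30 and -1.15 ± 0.31). In footprints ATP6V0E2 changed by -2.22 ± 0.28 and -1.37 ± 0.27, and ULK2 and RETREG1 were not tested. The pump therefore held subunits among both the highest and the lowest of the wider-list genes called with both hairpins. Among the 42, its lowest gene, ATP6V0A1, fell with SH2 only (-1.42, and 0.11 with SH3), so it would not enter such a ranking.

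**Figure D5:**
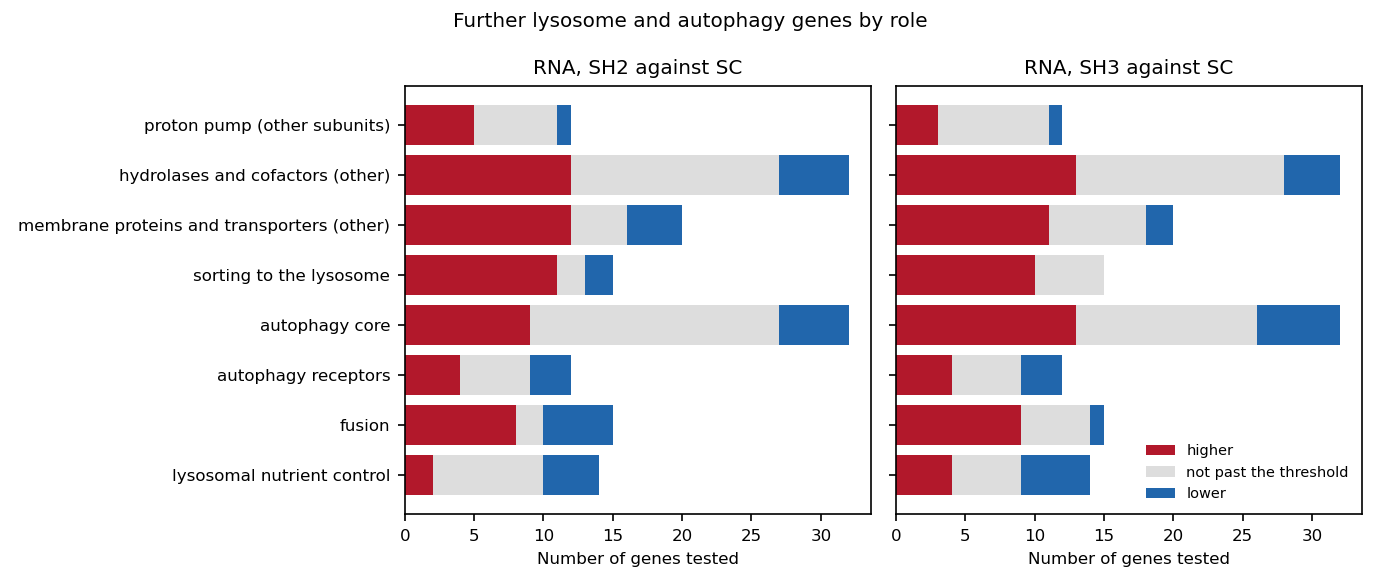
Number of genes of the wider list tested in RNA, by role, split into higher (red), not past the threshold (grey) and lower (blue) at an adjusted p of 0.05, for SH2 (left) and SH3 (right). Genes that sort hydrolases to the lysosome show the largest red share, with 11 and 10 of 15, and nutrient control genes are the role with more lower than higher genes for both hairpins.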

How the data were processed

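RNA-seq of cytoplasmic RNA and Ribo-seq footprints were analysed from 1 deposited table. Its read counts per gene and library are raw whole numbers as deposited by the authors, and it also holds the authors' log2 fold changes and p-values, per the file headers from DESeq2. The submitters' processing notes name Bowtie 1.2.2 and DESeq2. Genome build, annotation, counting tool, strand setting and the handling of reads that match several places are not given in the sources used here, so genes with close copies (MAP1LC3B, GABARAPL1, IDS, GUSB) and those with few counts (CTSB, CLN3) are uncertain in that respect. The 18 normalized columns were not used. The authors' deposited table gives the same direction counts for RNA over these genes (18 higher and 6 lower with SH2, 18 and 4 with SH3) and 15 higher and 2 lower, and 7 and 3, for footprints. Its ratio columns are identical for both hairpins in all 17017 genes and were not used.

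Counts were analysed with edgeR 4.0.16 in R 4.3.3 (filterByExpr, TMM, glmQLFit and glmQLFTest, two-sided, Benjamini-Hochberg over all genes tested), with 1 fit of the 9 IN libraries, 1 of the 9 RPF libraries and 1 of all 18 with an interaction contrast for efficiency. Called means an adjusted p under 0.05. SE is the absolute log2 change over the square root of F. The scripts were tested on simulated counts with known changes. Replicates of a group differed by more than counting noise (chi-square per degree of freedom 3.55 to 58.7). Alternatives were DESeq2 1.42.0, DESeq2 size factors, no filter, only the groups compared, a replicate block, plain library totals (for CPM levels only) and leaving out each replicate. Where that leaves 2 libraries in a group, the spread is still pooled over all groups. Shares over all genes are those of edgeR's fits of all libraries without the block, and were not counted under the alternatives. The pairing of replicate numbers was checked by the correlation of same-numbered libraries' deviations from their group means. It was over 0.1 in every pair of SC with SH2 (0.37 to 0.41 in IN, 0.25 to 0.30 in RPF), so the blocked fit is given where it changes a call of SH2 against SC. It was not in every pair of SC with SH3 (-0.16 to 0.36, and -0.06 to 0.26) or of SH2 with SH3 (-0.01 to 0.49, and -0.12 to 0.32).

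The members, the wider list and the tests were chosen with earlier results of these data known. Values of every library are given for TFEB, TFE3, LAMP1, SQSTM1 and MAP1LC3B, for the gene of each role with the largest mean RNA change called in both hairpins, for genes called in opposite directions or in efficiency, and for the 2 largest differences between hairpins in each direction. Values of other genes are given as estimates. Intervals given are SE or SD over libraries.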

Additional observations from a re-analysis of the deposited data

Results flagged for a closer look

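In 18 instances the SH2 and SH3 libraries themselves differed past the threshold in edgeR's test, so that the same knockdown target gave unequal values by hairpin. These were 8 of 41 genes in RNA (19.5%, all genes 39.3%) and 10 of 39 in footprints (25.6%, all genes 23.8%). The share was below that of all genes in RNA and close to it in footprints. In RNA the log2 difference, SH2 minus SH3, was -1.53 for ATP6V0A1, -1.13 for GLB1, -0.63 for NAGLU, -0.44 for SCARB2 and -0.29 for ATP6V1A, all lower in SH2, and 0.36 for ATP6V0D1, 0.48 for CTSF and 0.48 for WIPI1, all higher in SH2. In footprints the difference was -1.33 for ATP6V0A1 and -1.10 for TFEB, lower in SH2. It was 0.60 for ATP6V0D1, 0.76 for ATP6AP1, 0.94 for LAMP2, 0.64 for CTSF, 0.72 for TPP1, 0.93 for IDUA, 0.69 for PSAP and 1.30 for WIPI1, higher in SH2. ATP6V0A1, ATP6V0D1, CTSF and WIPI1 differed in both kinds of library and in the same direction in each. Of these calls, 4 of 8 in RNA and 3 of 10 in footprints held under every alternative run.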

How the results depend on the processing

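No call of a change in these genes reversed under any alternative run. Calls that held under every alternative were 19 of 24 in RNA with SH2, 14 of 22 in RNA with SH3, 14 of 19 in footprints with SH2, 5 of 10 in footprints with SH3 and 1 of 1 in efficiency. The number of genes that differed in RNA between SH2 and SH3 was 8, and became 14 with no filter on low counts, 13 with DESeq2, 14 with only the groups compared, and 5 to 11 with 1 replicate left out. In footprints between SH2 and SH3 it was 10, then 16 with only the groups compared and 4 to 9 with a replicate left out. With a replicate left out, the counts against SC ran from 14 to 29 in SH2 footprints, 6 to 19 in SH3 footprints, 1 to 2 in SH2 efficiency and 0 to 2 in SH3 efficiency. DESeq2 called 2 genes in SH3 efficiency and 1 between SH2 and SH3, where edgeR called 0. The cause was not tested, and shares over all genes were not counted for any of the alternatives. The correlation of same-numbered libraries was over 0.1 in 3 of 3 pairs of SC with SH2, in IN and in RPF. For SC with SH3, and likewise for SH2 with SH3, it was over 0.1 in 2 of 3 pairs in IN and 1 of 3 in RPF. Over all groups, 14 of 18 IN and 10 of 18 RPF comparisons correlated best within their own number. With the replicate number as a block, the counts were 28, 24 and 17 in RNA (SH2, SH3, and SH2 against SH3), 22, 14 and 14 in footprints and 1, 0 and 0 in efficiency, and GALNS in SH3 footprints was -0.03. The block lost no call against SC and gained 4 and 2 in RNA and 3 and 4 in footprints (SH2, SH3), among the latter LAMP1 (0.62, adjusted p = 0.0124) and SQSTM1 (0.44, adjusted p = 0.0286) with SH3.

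Some values that were not past the threshold with all libraries changed sign with a replicate left out. RNA with SH3 ran from -0.08 to 0.24 for GLB1 and from -0.01 to 0.11 for WIPI1. SH3 footprints ran from -0.20 to 0.13 for ATP6V0A1, -0.07 to 0.33 for CTSF, -0.27 to 0.02 for GLB1, -0.11 to 0.12 for GALNS and -0.08 to 0.47 for PSAP, and the SH3 efficiency of SQSTM1 from -0.51 to 0.22. Footprint counts were low for TFEB, IDS and WIPI1, with as few as 7, 16 and 22 in a library, and CTSB, CLN3 and ARSA could not be tested there. CTSB and CLN3 were near 0 in RNA too.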
